A study of Mus musculus with 12 samples.

Results

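Interferon-stimulated effector genes are the genes that a cell switches on when interferon reaches its receptors, and whose products block viruses, degrade or edit RNA, tag proteins and present peptides. A set of 36 such genes was followed in LSK cells. These are the lineage-negative, SCA1-positive and cKIT-positive fraction of mouse bone marrow, which holds stem and early progenitor cells. The genes were named from knowledge of the pathway, with earlier results of these data known. A member was taken as the probe set whose platform symbol is exactly its gene name, and the brightest where a gene had several. That gave 33 members of the 22180 genes with such a probe set, and 32 of the 33 were bright enough to be tested. The other member with a probe set, Mx1, was under the brightness limit on all arrays. Oas1a and Gbp2 shared all of their probe sets with other gene symbols and Ifi44 had none under its own symbol, so these 3 are not analysed here.

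Total RNA was measured on 12 Affymetrix arrays in 4 groups of 3. Irradiated KO cells lacked NIPA, the protein encoded by Zc3hc1, and received 4 Gy. Untreated KO cells lacked NIPA and received no dose, irradiated WT cells received 4 Gy, and untreated WT cells received none. All donors were older than 20 months and had been backcrossed to C57BL/6 over many generations, and each array held the merged cells of 3 mice. After the sort, all cells rested for 30 min in culture medium whose additions were SCF at 50 ng/ml, IL-6 at 10 ng/ml, IL-3 at 10 ng/ml and calf serum at 30%. They were harvested after 3 h. The part of Zc3hc1 deleted in the KO mice was not stated in the labels. The sort used SCA1, whose gene Ly6a is itself induced by interferon. Ly6a is not analysed here.

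Type I interferons bind a receptor of IFNAR1 and IFNAR2, which activates the kinases JAK1 and TYK2. These phosphorylate STAT2, which acts with IRF9 at the interferon-stimulated response element in the promoters of their targets. Interferon gamma acts through its own receptor, and many of its targets carry the gamma-activated site. In blood stem cells, interferon is known for pushing quiescent cells into cycle, and stem cells are known to keep some interferon-stimulated genes on without infection.

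RefSeq promoter windows of build GRCm38.p6, from 250 bases before to 50 bases after a transcription start, were found for 29 of the 36 members. Parp9, Mx2, Rtp4, Usp18, Oas2, Parp14 and Mx1 had no entry. The core of the interferon-stimulated response element, taken as GAAA, any 2 bases and GAAA on either strand, was present in 14 of the 29 members, or 48.3%, against 3.99% of 27025 genes. The gamma-activated site, TTCNNNGAA, which reads the same on both strands, was present in 10 members, or 34.5%, against 9.55% of genes. Matches of the motifs overlapped each other in Bst2 and Ifitm3. Genes of this kind were named for their response to interferon, so these shares describe the members and were not tested. Sequences below run 5′ to 3′ on the strand of the gene, with matches to the response element core in capitals. Shown are the 250 bases upstream of the 5 members with a whole match there whose array values are also given. They are Stat2 (chr10:128270248-128270497, plus strand), Isg15 (chr4:156200819-156201068, minus strand), Ifit3 (chr19:34583279-34583528, plus strand), Igtp (chr11:58199306-58199555, plus strand) and Rsad2 (chr12:26456453-26456702, minus strand).
Stat2: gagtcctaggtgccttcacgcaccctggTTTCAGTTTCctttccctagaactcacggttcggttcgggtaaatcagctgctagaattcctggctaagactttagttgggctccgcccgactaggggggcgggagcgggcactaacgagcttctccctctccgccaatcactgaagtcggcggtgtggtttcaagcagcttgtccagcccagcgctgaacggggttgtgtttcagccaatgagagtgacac
Isg15: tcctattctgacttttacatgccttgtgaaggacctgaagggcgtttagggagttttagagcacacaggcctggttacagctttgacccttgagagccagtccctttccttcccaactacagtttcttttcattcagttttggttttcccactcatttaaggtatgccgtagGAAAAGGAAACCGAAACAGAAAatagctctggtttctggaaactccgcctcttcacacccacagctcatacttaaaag
Ifit3: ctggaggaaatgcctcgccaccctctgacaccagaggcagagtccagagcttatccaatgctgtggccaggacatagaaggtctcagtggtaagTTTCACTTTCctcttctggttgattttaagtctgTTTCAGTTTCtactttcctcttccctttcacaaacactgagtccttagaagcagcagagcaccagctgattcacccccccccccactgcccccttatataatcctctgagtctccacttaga
Igtp: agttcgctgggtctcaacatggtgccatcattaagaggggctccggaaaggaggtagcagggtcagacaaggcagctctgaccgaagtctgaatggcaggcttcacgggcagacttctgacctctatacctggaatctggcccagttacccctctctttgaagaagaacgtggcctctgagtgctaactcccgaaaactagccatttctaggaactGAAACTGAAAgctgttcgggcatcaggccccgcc
Rsad2: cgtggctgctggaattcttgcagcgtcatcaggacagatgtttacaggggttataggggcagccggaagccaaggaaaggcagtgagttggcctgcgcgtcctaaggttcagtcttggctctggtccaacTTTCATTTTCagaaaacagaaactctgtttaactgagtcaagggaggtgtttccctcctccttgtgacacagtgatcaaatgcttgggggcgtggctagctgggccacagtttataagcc
In Isg15, 3 overlapping matches ran from 78 to 57 bases before the start. The single match of Igtp began 34 bases before the start, with a gamma-activated site beginning 45 bases before it. Ifit3 had a pair of matches on the opposite strand. The Ifit3 window lies inside the RefSeq span of the gene, chr19:34583119-34588982, upstream of a start within that span. Of the 5 members shown, only Igtp passed a test with all arrays fitted. Mx2, Ifit2 and Samhd1 also passed and are not shown. Mx2 had no promoter window. Ifit2 and Samhd1, which fell with irradiation, had a gamma-activated site and no response element core in their windows. A match is a string of letters and shows no binding.

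The labels held in the data. After irradiation, Zc3hc1 averaged 5.67 ± 0.07 in KO cells against 7.95 ± 0.27 in WT cells (log2 value, SD, n = 3 each). Without irradiation it averaged 5.78 ± 0.04 in KO cells against 8.29 ± 0.26 in WT cells. Cdkn1a, the p53 target that encodes the cell cycle inhibitor p21, rose with irradiation by 1.31 in KO cells and by 1.26 in WT cells on the log2 scale (limma, adjusted p = 0.00527 and 0.0079). All 10 LSK markers with a probe set, Kit and Cd34 among them, were over the brightness limit. Of 7 markers of the sorted-out lineages, 3 were over it. Irradiated arrays number 1 were the lowest irradiated arrays on the first principal component of all tested genes, at 7.13 in KO and 15.44 in WT. The other 4 irradiated arrays lay between 19.93 and 29.32 and the untreated arrays between -24.74 and -17.05. In WT the gap to irradiated array 2 (19.93) was smaller than that between arrays 2 and 3 (28.42). On the second component, irradiated arrays number 1 (KO 15.44, WT 28.17) and untreated WT array 1 (21.35) were highest. The other arrays lay between -22.27 and 1.47 there. Results that rest on irradiated arrays number 1 are also given without these 2 arrays. In bulk RNA, fewer cells of a type and less RNA per cell cannot be told apart.

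**Figure D1:**
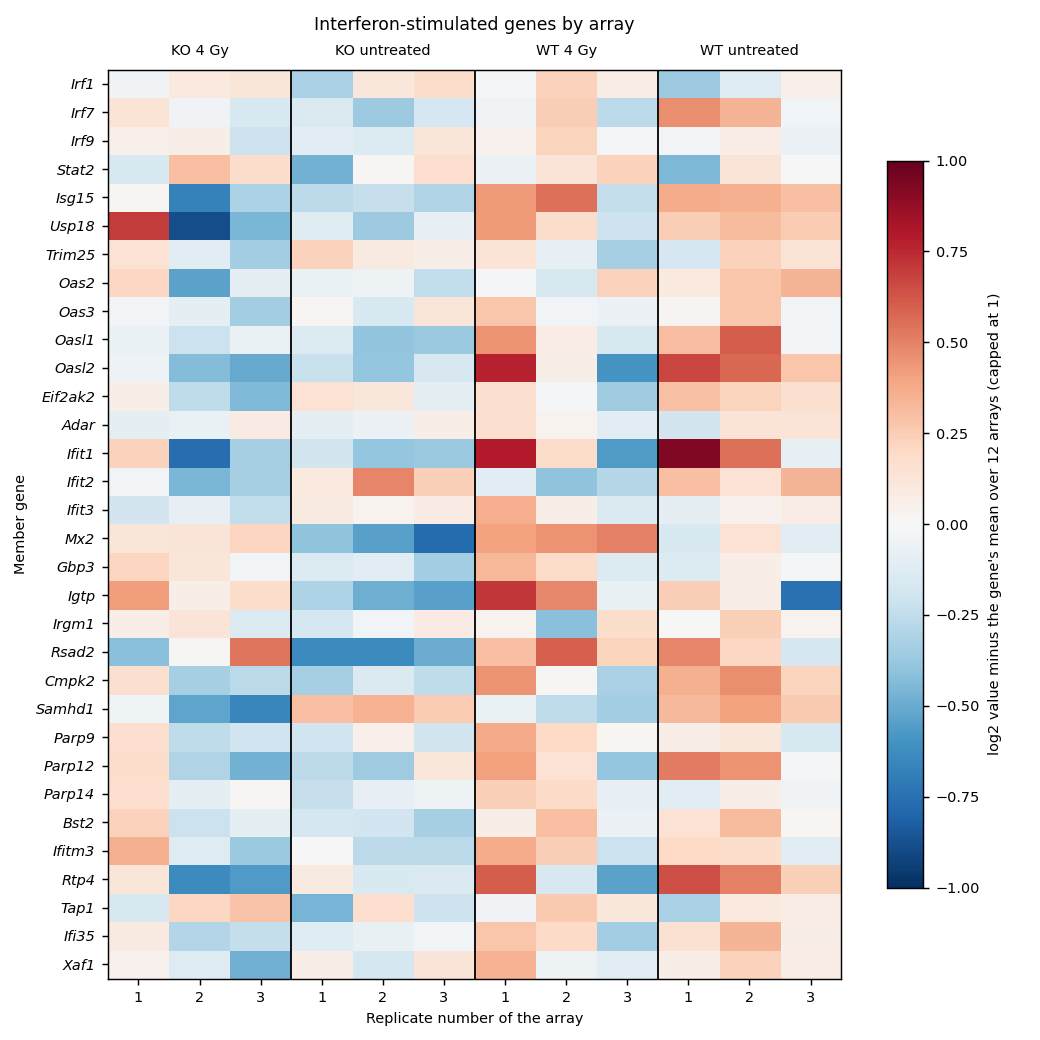
Heat map of the 32 members tested (rows) on the 12 arrays (columns, by group and replicate number), as the log2 value minus the gene's mean over all arrays. Most members are bluer on the untreated KO arrays than on the untreated WT arrays, and the irradiated arrays vary more within a group.

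Irradiation moved few of the members. Among genes tested with limma, 742 of 15348 (4.83%) changed in WT cells and 911 (5.94%) in KO cells. Of the 32 members, 1 changed in WT cells (3.12%) and 3 in KO cells (9.38%), so the members' shares were near those of all genes. With both genotypes averaged, 4 members changed (12.5%), against 16.5% of all genes: Mx2 and Igtp rose, and Samhd1 and Ifit2 fell. The median member difference with irradiation was -0.06 on the log2 scale, against 0.00 for all genes. The groups did not overlap, with irradiated arrays higher, for 4 members in KO cells (10.2% of all genes) and 1 in WT cells (11.4%). They did not overlap, with irradiated arrays lower, for 3 members in KO cells (13.2%) and 3 in WT cells (13.3%).

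Among the transcription factors that start the programme, no member passed the test. Stat2, which acts with IRF9 at the response element, read 8.93, 9.38 and 9.26 in irradiated KO cells and 8.61, 9.09 and 9.25 in untreated KO cells (log2 values here and in what follows). It read 9.02, 9.22 and 9.31 in irradiated WT cells and 8.64, 9.21 and 9.08 in untreated WT cells. All 4 groups overlapped, and the average irradiation difference was 0.21 (SE 0.14, limma adjusted p = 0.347). Irf1, an early target of interferon gamma that itself turns on antigen presentation genes, read 7.28, 7.41 and 7.44 in irradiated KO cells and 6.99, 7.43 and 7.49 in untreated KO cells. In WT cells it read 7.31, 7.55 and 7.39 after irradiation and 6.95, 7.19 and 7.37 without. Its groups overlapped too, and the average irradiation difference was 0.16 (SE 0.11, adjusted p = 0.347). Irf9, which binds the DNA there, lay between 8.38 and 8.81 on all 12 arrays.

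Mx2, one of the interferon-induced dynamin-like GTPases, was the member with the smallest p for irradiation. It read 6.09, 6.09 and 6.17 in irradiated KO cells, against 5.56, 5.42 and 5.19 in untreated KO cells. It read 6.36, 6.41 and 6.47 in irradiated WT cells, against 5.81, 6.11 and 5.86 in untreated WT cells. Every irradiated array was above every untreated array of its genotype. Mx2 rose by 0.73 in KO cells (SE 0.12, 1.66-fold, limma adjusted p = 0.00371) and by 0.49 in WT cells (SE 0.12, 1.40-fold, adjusted p = 0.0353). In KO cells the call held whichever array was left out. In WT cells it was lost without any of the irradiated WT arrays, without untreated WT array 1 or 3 or without untreated KO array 2, with adjusted p values of 0.0293 to 0.137 over all 12 omissions. Without both irradiated arrays number 1 the WT value was 0.51 (adjusted p = 0.0506).

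Mx1, the paralog that blocks influenza virus and is defective in C57BL/6 mice, read 4.78, 5.04 and 5.04 in irradiated KO cells and 4.25, 4.22 and 4.29 in untreated KO cells. It read 4.54, 4.78 and 4.75 in irradiated WT cells and 4.42, 4.51 and 4.86 in untreated WT cells. Irradiated KO arrays were above untreated KO arrays, the WT groups overlapped, and no array reached the brightness limit of 5.29. Igtp, an immunity-related GTPase that acts on vacuoles holding pathogens, read 8.56, 8.20 and 8.31 in irradiated KO cells and 7.83, 7.65 and 7.60 in untreated KO cells. It read 8.85, 8.62 and 8.07 in irradiated WT cells and 8.39, 8.21 and 7.39 in untreated WT cells. The KO groups did not overlap and the WT groups did. Igtp rose on average by 0.59 (SE 0.17, 1.51-fold, limma adjusted p = 0.0362). That call was lost on leaving out any of 9 of the 12 arrays, all but irradiated WT array 3 and untreated WT arrays 1 and 2 (adjusted p 0.0176 to 0.0764), and without both irradiated arrays number 1 (0.106).

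Samhd1, an enzyme that breaks down deoxynucleotides and so lowers their pool, fell. It read 8.86, 8.37 and 8.25 in irradiated KO cells, against 9.20, 9.25 and 9.15 in untreated KO cells. It read 8.84, 8.64 and 8.56 in irradiated WT cells, against 9.23, 9.30 and 9.16 in untreated WT cells. All 6 irradiated arrays were below all 6 untreated arrays, and irradiated arrays number 1 were the highest of their groups. Samhd1 fell by 0.71 in KO cells (SE 0.15, limma adjusted p = 0.0141) and its difference was -0.55 in WT cells (SE 0.15, adjusted p = 0.0508). The KO call was lost without irradiated KO array 2 (0.0626) or 3 (0.0564) or untreated KO array 2 (0.0634). The average of both genotypes was -0.63 (SE 0.10, adjusted p = 0.00144) and passed on every omission.

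Ifit2, which belongs to the IFIT family of proteins that bind foreign RNA, fell as well. It read 6.18, 5.75 and 5.87 in irradiated KO cells, against 6.30, 6.69 and 6.44 in untreated KO cells. It read 6.10, 5.80 and 5.92 in irradiated WT cells, against 6.50, 6.35 and 6.54 in untreated WT cells. No irradiated array reached an untreated one. Ifit2 fell by 0.54 in KO cells (SE 0.14, 1.46-fold, limma adjusted p = 0.0432), its difference was -0.53 in WT cells (SE 0.14, adjusted p = 0.0559), and the average was -0.53 (SE 0.10, adjusted p = 0.00342). The KO call was lost on leaving out any of 9 arrays, all but irradiated KO array 1 and irradiated WT arrays 1 and 2, with adjusted p values of 0.0138 to 0.18 over all 12 omissions, while the average passed each time. Ifit3, of the same family, read 6.85, 6.95 and 6.78 in irradiated KO cells and 7.12, 7.06 and 7.11 in untreated KO cells, and these did not overlap. In WT cells it read 7.39, 7.09 and 6.89 after irradiation and 6.94, 7.08 and 7.11 without, and these did. Its difference was -0.24 in KO cells and 0.08 in WT cells, and neither passed (limma adjusted p = 0.326 and 0.77).

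**Figure D2:**
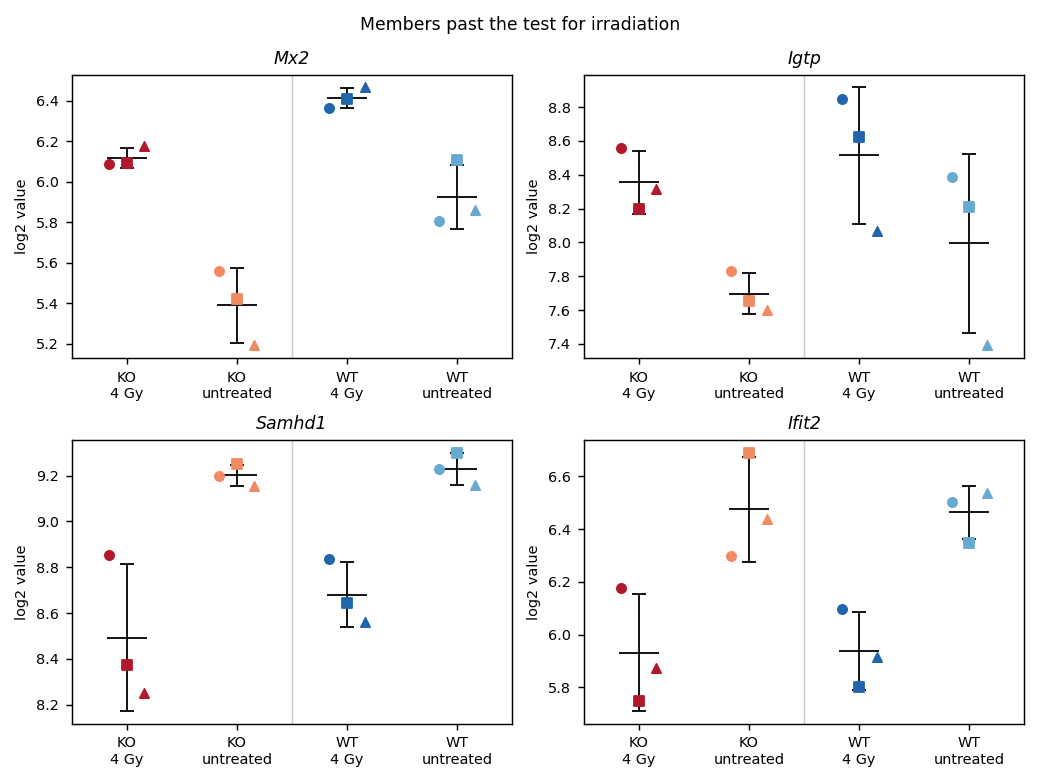
Log2 values of Mx2, Igtp, Samhd1 and Ifit2 on each array, with the group mean and SD (n = 3); circles, squares and triangles are replicates 1, 2 and 3, and the vertical axes do not start at 0. The group means of Mx2 and Igtp lie higher, and those of Samhd1 and Ifit2 lower, after 4 Gy in both genotypes. The Igtp arrays of WT cells overlap, with irradiated array 3 at 8.07, against 8.39 and 8.21 on untreated arrays 1 and 2.

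Leaving out both irradiated arrays number 1 raised the number of members called. In WT cells 5 of 32 members then passed, or 15.6%, against 7.53% of all genes in the same fit, and all 5 were lower: Cmpk2, Ifit2, Oasl2, Rtp4 and Samhd1. In KO cells 4 passed (12.5%, against 11.2% of all genes), and in the average 8 passed, 2 higher and 6 lower (25.0%, against 22.1% of all genes), so the KO and average shares lay near the background. Both left-out arrays carried the members high: 25 of 32 members lay above their group mean on irradiated KO array 1 (median deviation 0.23) and 23 on irradiated WT array 1 (0.19). Irradiated WT array 3 had 28 of 32 below it (median -0.22), and untreated WT array 2 had 30 above it (0.09). The medians over all tested genes on these 4 arrays were between -0.0036 and 0.022. In WT cells, arrays of the same number deviated together (correlations of 0.49, 0.48 and 0.42 across genes), so the numbers were taken as pairs there. The fit without both irradiated arrays number 1 kept untreated WT array 1 and held no block, so it broke that pair. Members on that untreated array had a median deviation of -0.02. With the pairs as a block in the WT arrays alone, 4 members passed (12.5%, against 13.8% of all genes): Mx2 and Igtp higher, Samhd1 and Ifit2 lower. Cmpk2, Oasl2 and Rtp4 were not among them. The WT arrays alone without the block gave 1 member, Samhd1, lower (adjusted p = 0.0415), with 4.75% of all genes passing.

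**Figure D3:**
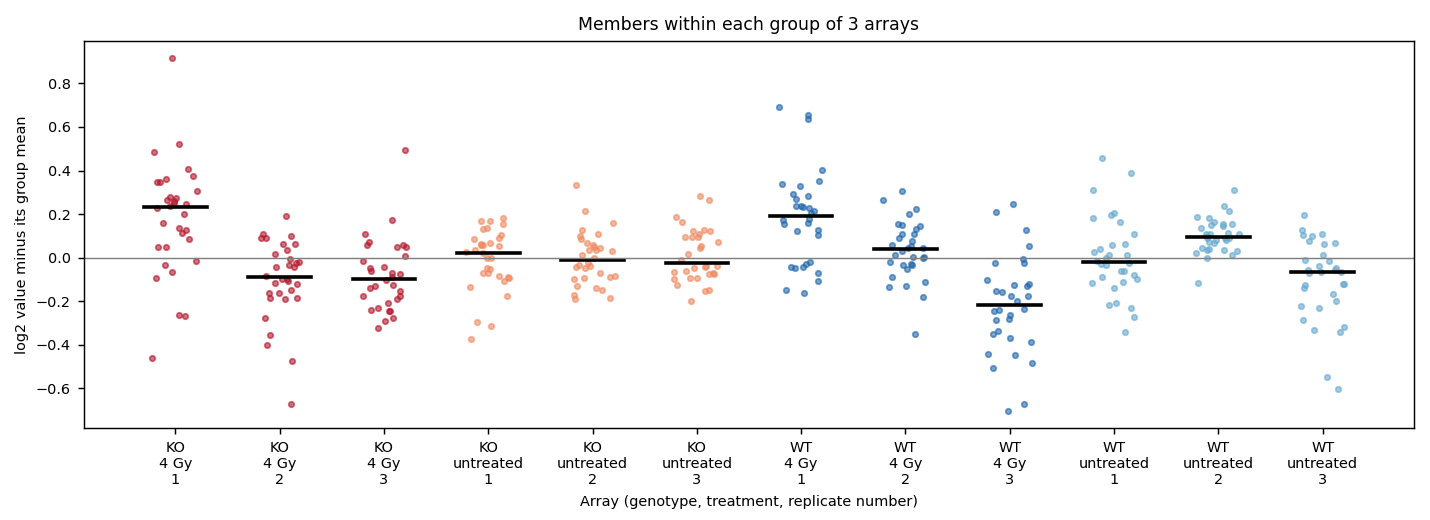
Deviation of each of the 32 members from its own group mean on the log2 scale (points), by array, with the median (bar); groups of 3 arrays share a colour. The points of irradiated arrays number 1 lie mostly above 0 and those of irradiated WT array 3 mostly below.

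Markers of red cell precursors moved with irradiation beside these members. The mean log2 value of 6 erythroid markers lay at 5.58 to 5.99 in irradiated KO cells and 6.83 to 7.12 in untreated KO cells. It lay at 5.64 to 5.82 in irradiated WT cells and 6.36 to 6.72 in untreated WT cells, so the groups did not overlap in either genotype. On average 5 of the 6 fell with irradiation. In that average 16.5% of all genes passed, the share to set beside the counts that follow. Of 10 LSK markers tested, Flt3, a cytokine receptor of early progenitors, fell by 1.13 (adjusted p = 3.87e-05) and Meis1, a stem cell homeobox factor, fell by 0.58 (adjusted p = 0.00314). Of 9 dendritic cell markers, Itgax, an integrin chain, rose by 0.89 (adjusted p = 0.00525) and Irf8 fell, and of 10 monocyte markers only Cx3cr1, a chemokine receptor, passed, rising by 0.71 (adjusted p = 0.0466). None of the tested markers of the sort's lineage panel, T and NK cells, B cells or granulocytes passed. The part of these cell types in the members' results was not tested. Of the other genes of the pathway, 17 interferon genes had a probe set and 8 were bright enough to be tested. None of the 8 passed in any comparison. Among the 8, Ifna1 read 7.41 to 7.98 and Ifna4 read 8.16 to 9.19 over the 12 arrays. Whether these probe sets read only their own gene was not tested. Ifnb1, not among the 8, lay between 3.68 and 4.18 on all 12 arrays, under the brightness limit. Of 10 genes of receptors and their signalling, Il10rb, a receptor chain for interferon lambda, rose on average by 0.42 (limma adjusted p = 0.0311). Trim24, a co-repressor of the pathway, rose by 0.48 (adjusted p = 0.00672) among 11 negative regulators. Irf8, a factor of monocyte and dendritic cell development, fell by 0.66 (adjusted p = 0.0217) among 6 other interferon regulatory factors. The Il10rb call was lost without untreated KO array 2 or 3, untreated WT array 2 or 3 or irradiated WT array 1 or 2 (adjusted p 0.0192 to 0.0762 over the omissions), and without both irradiated arrays number 1 (0.0597). The Irf8 call was lost without untreated KO array 1 or 2, untreated WT array 2 or irradiated WT array 3 (0.00125 to 0.058), and with the mean of all its probe sets (-0.41, adjusted p = 0.0514). Trim24 passed in all 21 alternatives.

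Of 55 other interferon-stimulated genes, 2 rose and 6 fell with irradiation on average, where 16.5% of all genes passed. The 3 with the smallest p all fell: Sp110, a nuclear body protein, by 0.63 (limma adjusted p = 0.00735), Uba7, the enzyme that activates ISG15, by 0.81 (0.0109), and Gbp9, a guanylate-binding protein, by 0.99 (0.015). In antigen processing, 3 of 13 genes fell and none rose, beside the same 16.5% of all genes. They were the inducible proteasome subunits Psmb9, by 0.73 (adjusted p = 0.00471), Psmb8, by 0.56 (0.00603), and Psmb10, by 0.51 (0.015). The Sp110 value was -0.31 with the mean of all its probe sets (adjusted p = 0.0551), and the other 5 named here passed in all 21 alternatives. Psmb9 read 8.92, 8.61 and 8.74 in irradiated KO cells and 9.19, 9.80 and 9.40 in untreated KO cells. In WT cells it read 9.03, 9.18 and 8.45 after irradiation and 9.50, 9.91 and 9.52 without, and no irradiated array reached an untreated one of its genotype. Tap1, the member that pumps peptides to the same route, had an average difference of 0.22 (SE 0.13), which did not pass.

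Loss of NIPA went with lower estimates for most members, and no single member passed the test. In untreated cells 27 of the 32 members had lower means in KO than in WT, against 48.4% of all genes, and the median difference was -0.22 on the log2 scale, against 0.00. In irradiated cells 29 of 32 were lower (52.7% of all genes), with a median of -0.18, against -0.01. The median over both was -0.21. limma called 0 members in untreated cells, where 0.00652% of all genes passed, and 0 in irradiated cells, where 0.00652% passed too. Without adjustment, 9 members had p under 0.05 in untreated cells (2.15% of all genes) and 2 in irradiated cells (3.07%). The smallest adjusted p of a member was 0.9998 in untreated cells and 0.423 in the average of both, that of Mx2. In the average, 10 members had an unadjusted p under 0.05 (4.14% of all genes). Members measured on the same arrays are not independent of each other. They were also chosen with earlier results of these data known, so the counts describe the set and were not tested.

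In untreated cells the arrays of many members separated by genotype. For 14 of the 32 members, all 3 untreated KO arrays were below all 3 untreated WT arrays, against 3.55% of all genes, and none was the other way, against 4.4%. The 14 were Mx2, Rsad2, Oasl1, Cmpk2, Irf7, Isg15, Oasl2, Bst2, Ifit1, Oas2, Rtp4, Ifi35, Usp18 and Eif2ak2. Their means were lower in irradiated KO than irradiated WT cells too, except for Irf7, with 6.78 in each, and only Mx2 kept the arrays apart there (3.83% of all genes). By role, 4 of 6 RNA-sensing enzymes, 2 of 3 genes of the ISG15 pathway, 2 of 3 nucleotide enzymes and 2 of 4 membrane proteins separated. So did 1 of 4 transcription factors, 1 of 3 IFIT proteins, 1 of 4 GTPases and 1 of 2 other effectors, and none of 3 PARP proteins. Of the 14, 10 had a promoter window and 5 of these held the response element core. Of the other 18 members tested, 16 had a window and 7 held it.

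Isg15, a ubiquitin-like protein that is joined to other proteins after interferon, separated with little spread inside each untreated group. It read 6.68, 6.72 and 6.65 in untreated KO cells, against 7.32, 7.30 and 7.25 in untreated WT cells. After irradiation it read 6.97, 6.27 and 6.63 in KO cells, against 7.38, 7.50 and 6.71 in WT cells. The untreated groups lay apart by far more than their own ranges, and the irradiated groups overlapped. The difference was -0.61 in untreated cells (SE 0.20, 1.52-fold lower, limma adjusted p = 0.9998) and -0.57 in irradiated cells (adjusted p = 0.9995). The SE comes from the fit over all 12 arrays and so also holds the wider spread of the irradiated groups. Usp18, the protease that removes ISG15 and damps the receptor, read 6.66, 6.42 and 6.70 in untreated KO cells, against 7.03, 7.10 and 7.04 in untreated WT cells. It read 7.48, 5.90 and 6.33 in irradiated KO cells, against 7.21, 6.96 and 6.58 in irradiated WT cells, where irradiated KO array 1 was the highest of all 12. Its difference was -0.46 in untreated cells (SE 0.31) and did not pass.

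Among the enzymes, Rsad2 encodes viperin, which makes a nucleotide that ends viral RNA chains. It read 6.58, 6.59 and 6.73 in untreated KO cells, against 7.71, 7.43 and 7.06 in untreated WT cells. It read 6.81, 7.23 and 7.76 in irradiated KO cells, against 7.52, 7.82 and 7.44 in irradiated WT cells. Untreated groups lay apart, and irradiated KO array 3 reached into the WT range. The difference was -0.77 in untreated cells (SE 0.22, 1.70-fold lower) and -0.33 in irradiated cells (SE 0.22), and neither passed. Cmpk2, a mitochondrial nucleotide kinase, read 7.76, 7.95 and 7.84 in untreated KO cells, against 8.45, 8.56 and 8.31 in untreated WT cells. It read 8.25, 7.76 and 7.82 in irradiated KO cells, against 8.54, 8.11 and 7.77 in irradiated WT cells. As with Rsad2, the separation held in untreated cells and not in irradiated ones. The Cmpk2 differences were -0.59 (SE 0.18) and -0.19 (SE 0.18). With 1 array left out, the differences in irradiated cells ran from -0.58 to -0.10 for Rsad2 and from -0.38 to 0.007 for Cmpk2.

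Oasl1, an OAS-like protein known in mouse for holding back translation of Irf7, read 6.87, 6.61 and 6.64 in untreated KO cells, against 7.31, 7.61 and 6.98 in untreated WT cells. It read 6.94, 6.79 and 6.94 in irradiated KO cells, against 7.46, 7.08 and 6.85 in irradiated WT cells. The untreated groups lay apart by a small gap, and the irradiated groups overlapped. Irf7, the factor that amplifies type I interferon production, read 6.65, 6.43 and 6.62 in untreated KO cells, against 7.26, 7.14 and 6.77 in untreated WT cells. It read 6.93, 6.76 and 6.64 in irradiated KO cells, against 6.76, 7.04 and 6.53 in irradiated WT cells, where the means were 6.78 in each. The differences in untreated cells were -0.59 for Oasl1 (SE 0.18) and -0.49 for Irf7 (SE 0.16), and neither passed. Ifit1, at -0.78 (SE 0.34), and Oasl2, at -0.76 (SE 0.26), did not pass either.

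**Figure D4:**
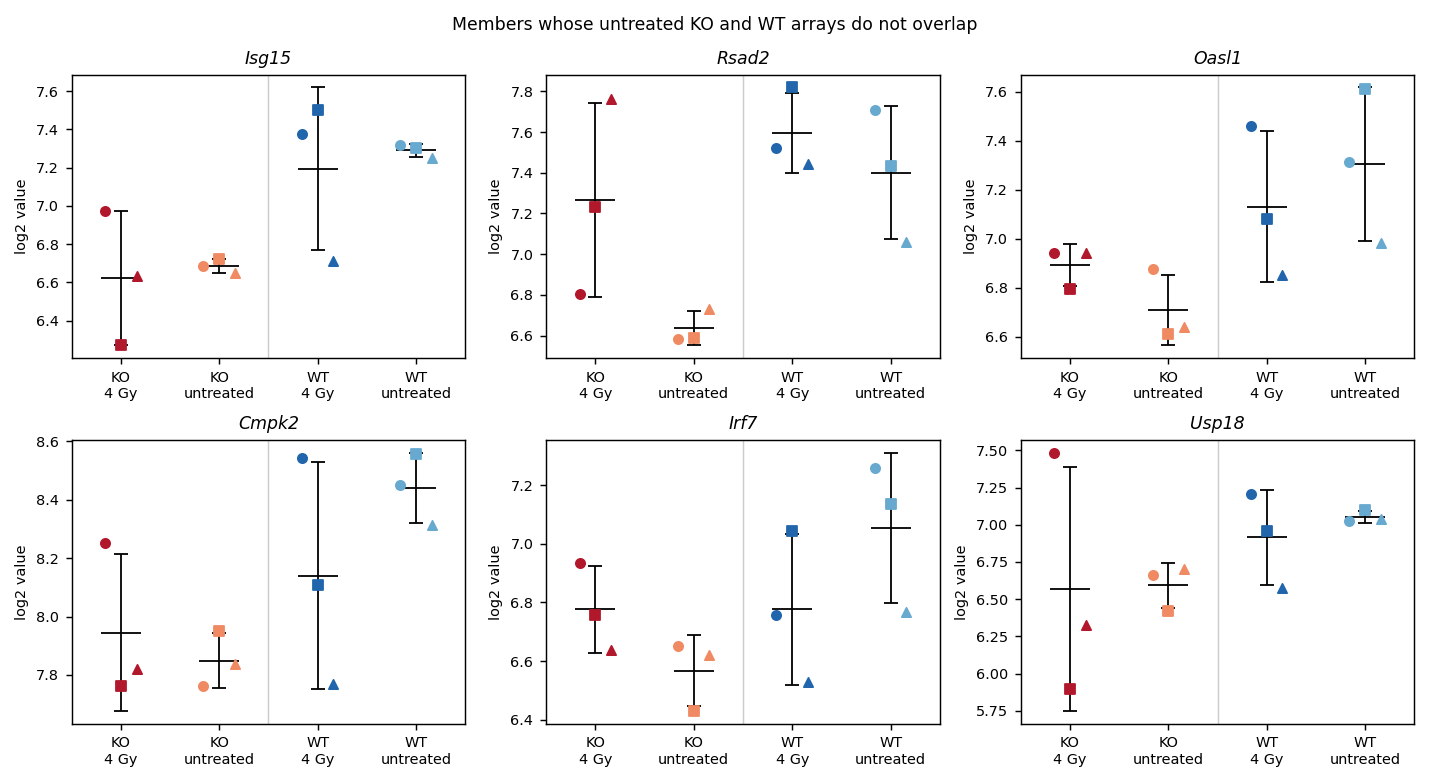
Log2 values of 6 members on each array, with group mean and SD (n = 3); circles, squares and triangles are replicates 1, 2 and 3, and the vertical axes do not start at 0. Untreated KO arrays lie below untreated WT arrays in every panel, while irradiated arrays overlap.

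A difference of the irradiation effect between genotypes was not detected for any member. The interaction called 0 members, as 0% of all genes, and 0 members had an unadjusted p under 0.05 (1.53% of all genes). The members with the smallest p were Irf7 (0.49, SE 0.23), Ifit3 (-0.32, SE 0.18) and Cmpk2 (0.40, SE 0.26), each with a limma adjusted p of 0.9999. The 95% interval of the interaction had a median half-width of 0.49, not adjusted over genes. Differences of that size or larger could still miss the adjusted threshold.

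The means of some marker lists of other cell types lay apart between the untreated groups as well, though no single marker passed the test there. The erythroid mean was 6.83 to 7.12 in untreated KO cells and 6.36 to 6.72 in untreated WT cells, with no overlap. The mean of the 7 markers listed for the sorted-out lineages, Ptprc among them, was 6.37 to 6.42 in untreated KO cells and 6.15 to 6.31 in untreated WT cells. Of these 7, 4 were not over the brightness limit, and none of the 3 tested separated the groups. Monocyte markers ranged more widely, at 7.21 to 8.06 in untreated KO cells and 7.33 to 7.53 in untreated WT cells, and so did B cell markers, at 6.13 to 7.57 and 5.78 to 6.72. The mean of 9 plasmacytoid and dendritic markers overlapped, reaching 7.38 in untreated KO cells and 7.23 in untreated WT cells. The part of these cells in the members' lower values was not tested. Of the 55 other interferon-stimulated genes, 41 were lower in untreated KO cells, against 48.4% of all genes, and the median was -0.11, against 0.00. Of the 55, 8 were lower without overlap (3.55% of all genes) and 1 was higher without overlap (4.4%). None passed. Ifih1, the double-stranded RNA sensor MDA5, was 1 of the 8. It read 7.59, 7.57 and 7.76 in untreated KO cells, against 8.57, 8.19 and 8.27 in untreated WT cells, and 7.66, 7.77 and 7.86 in irradiated KO cells, against 8.74, 8.41 and 8.35 in irradiated WT cells.

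**Figure D5:**
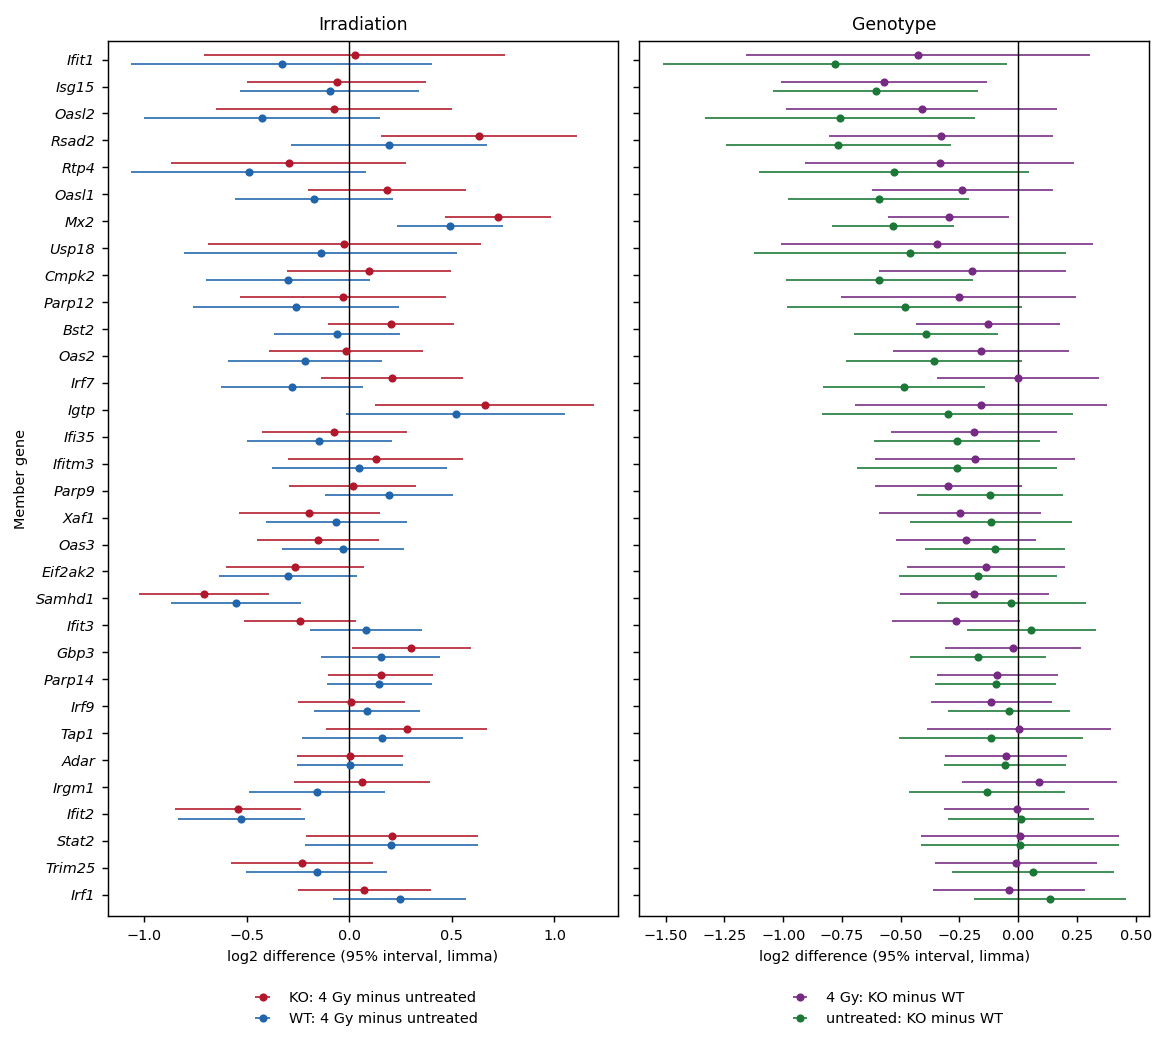
limma log2 differences with 95% intervals for the 32 members, irradiated minus untreated in KO and WT cells (left) and KO minus WT in irradiated and untreated cells (right), ordered by the average genotype difference. Genotype estimates lie mostly below 0, and most intervals include 0.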

How the data were processed

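Total RNA of 12 arrays was measured after Affymetrix WT Pico amplification, per the labels' protocols. The deposited log2 values come from oligo and RMA, per the submitters' processing notes, which means background correction, quantile normalization across arrays and a summary per probe set. Versions and genome build are not stated in the labels. Of 41345 probe sets, 23521 carry 1 symbol, 1814 several and 16010 none, and gene IDs of 23328 matched RefSeq. Array medians lay between 5.74 and 5.85. Array number limits the precision.

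Genes whose value exceeded 5.29, the 40th percentile of the table, on at least 3 arrays were tested (15348). limma 3.58.1 in R 4.3.3 fitted all 12 arrays with 4 groups, and p-values are two-sided with Benjamini-Hochberg adjustment over all genes tested, threshold 0.05. The fit was tested on simulated data. With 3 arrays a group, exact permutation cannot reach the threshold, so limma alone was used. The labels do not say whether untreated and irradiated cells came from separate pools, so p-values measure the spread between these arrays.

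Members and lists were chosen with earlier results of these data known. Array values are given for members past a test, for Mx1, Isg15, Irf1, Irf7, Stat2 and Usp18, and for the 3 members with the smallest p of a comparison without calls. Of pathway lists, up to 3 passing genes by smallest p are named. Ifih1, Ifit1, Oasl2, Irf9, Tap1, Ifnb1, Ifna1, Ifna4 and Ptprc were added after their values were seen. In WT cells, and between untreated KO and WT cells, same-numbered arrays correlated over 0.1 in every pair, and in the other comparisons they did not. Alternatives changed the brightness limit, the probe set rule, the scaling, the arrays in the fit and the block.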

Additional observations from a re-analysis of the deposited data

How the results depend on the processing

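The counts of 0 members for genotype at either dose, for the average genotype difference and for the interaction were 0 under all alternatives run. At most 0.0261% of all genes passed in any of those fits. The WT irradiation count of 1 became 2 with the brightness limit at the table median (6.25% of members, against 5.96% of all genes). It was 2 with the replicate block over all arrays (6.25%, against 7.01%) and 3 with the block within genotype (9.38%, against 8%). It was 4 with the block in the WT arrays alone (12.5%, against 13.8%). Without both irradiated arrays number 1 it was 5 (15.6%, against 7.53%). With 1 array left out it was 0 to 3, where 2.05% to 6.8% of all genes passed. The KO irradiation count of 3 became 1 to 4 with 1 array left out, where 2.56% to 10.3% of all genes passed. It was lowest without untreated KO array 2 or irradiated KO array 2 or 3. The average count of 4 became 7 with the block within genotype (21.9%, against 21.6% of all genes). It was 8 without both irradiated arrays number 1 (25%, against 22.1%). With 1 array left out it was 3 to 5, where 12.1% to 22.3% of all genes passed. In KO cells the numbers did not pair the arrays: same-numbered arrays had correlations of 0.47, -0.24 and -0.12, and irradiated arrays 2 and 3 correlated best with untreated arrays 3 (0.52) and 2 (0.44). The block within genotype gave 3 members in KO cells, Igtp, Mx2 and Samhd1 (9.38%, against 9.06% of all genes). The block with untreated arrays alone left the genotype count at 0, and it changed no other call on genotype. The fits of the WT and of the untreated arrays alone, the count of separated members with its alternatives, and the alternatives for pathway genes were chosen after seeing the data. The cause of these changes was not tested. The 14 members that separated in untreated cells became 14 to 18 on leaving out an untreated array. Leaving out an array can only keep or raise this count, so the range is no check of it. The matching share of all genes was not computed. Median differences moved less than the spread between arrays (0.143): the average irradiation median ran from -0.09 to 0.03 and the average genotype median from -0.28 to -0.15 with 1 array left out. The irradiation median thus changed sign. Leaving out 1 array moves such an average by only a part of that array's deviation, so these ranges are a weak check. Of 18 single-gene calls, none changed sign. Ifit2 fell short in KO cells with no brightness limit (adjusted p = 0.0508), with array medians subtracted (0.0628), with the block within genotype (0.0567) and with only the KO arrays fitted (0.114). Samhd1 fell short in KO cells with only the KO arrays fitted (0.0634), and Mx2 in WT cells when the WT arrays were fitted by themselves (0.0630) or cyclic loess was applied (0.0595). With no brightness limit, Mx1 was called higher in KO cells and in the average. The 95% half-width, at a median of 0.35 for a member, is not adjusted over genes, so larger differences could also be missed. Mx2 in untreated cells, at -0.53 for genotype (95% interval -0.79 to -0.27), had a limma adjusted p of 0.9998.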

Other observations

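The mean log2 value over the 32 members was 7.55, 7.56 and 7.57 in untreated KO cells, against 7.85, 7.94 and 7.74 in untreated WT cells, with no overlap. It was 7.78, 7.49 and 7.51 in irradiated KO cells, against 7.96, 7.81 and 7.56 in irradiated WT cells, where irradiated KO array 1 lay above irradiated WT array 3. Of the 12 arrays, irradiated WT array 1 held the highest value of 9 members and irradiated KO array 3 the lowest of 9. The interferon lambda genes Ifnl2 and Ifnl3, named after their values were seen, read 7.43 to 7.78 and 6.09 to 6.99 over the 12 arrays. Whether their probe sets read only their own gene was not tested either.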
